A study of Drosophila melanogaster with 18 samples.

Results

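The Rab, Arf and Arl genes encode the small GTPases that direct traffic between the membrane compartments of a cell. They were chosen by name alone, as every row of the deposited lists whose symbol starts with Rab, Arf or Arl followed by a digit. The pattern found 24 genes in at least 1 of 4 lists, of 41 genes in the annotation whose current symbol matches it, and 7153 genes of the whole series are in at least 1 list. Of the 41, 37 encode GTPases. The other 4 carry the name of a GTPase they act on or with, namely Rab3-GEF, Rab3GAP1, Rab3-GAP and Arl6IP1, and 22 of the 24 listed genes are GTPase genes. The deposited lists call the Arf genes Arf79F, Arf102F and Arf51F, which are Arf1, Arf4 and Arf6 in the current annotation.

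The data are from Targeted DamID (TaDa), which fuses the protein under study to Dam, a bacterial enzyme that adds a methyl group to the adenine of GATC sites near the places the fusion touches, so that the marked fragments can be amplified and sequenced. The 18 samples are midguts of mated adult Drosophila females kept for 72 hours at 29°C, 3 for each of 6 genotypes. Dam fused to the RA isoform of the transcription factor Ets21c (UAS-LT3-Dam-ets21c-RA), Dam fused to PolII (UAS-LT3-Dam-PolII) and Dam alone (UAS-LT3-Dam) were each expressed in intestinal stem cells and enteroblasts (ISCs/EBs) by the esg-Gal4 driver, and in enterocytes (ECs) by the Myo1A-Gal4 driver, each combined with tub-Gal80-TS and a UAS-GFP reporter. Each ISC/EB sample pooled 50 midguts and each EC sample 30, so single flies cannot be told apart, and the same landing site, attP2, held all of the Dam transgenes. The Ets21c fusion is a transgene added to the endogenous Ets21c, so its binding is that of an extra copy at a low level.

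For each cell type the deposited table gives a list of Ets21c-bound genes and a list of PolII-bound genes, with 1 height per gene, which is the log2 of the fusion signal divided by that of Dam alone, and a false discovery rate (FDR). The heights are the authors' values over pooled replicates, so no spread between replicates can be given, no difference was tested, and the read depth is unknown. A gene outside a list did not pass the authors' thresholds, which is not a measured absence. By PolII the progenitor markers esg (1.463) and klu (0.532) were listed in ISCs/EBs alone. The enterocyte gene mex1 was PolII-listed in both cell types, with the larger height in ISCs/EBs (1.105 in ISCs/EBs and 0.594 in ECs). So was GATAe, a midgut transcription factor gene (1.543 in ISCs/EBs and 0.56 in ECs). Myo31DF, the gene behind the name of the Myo1A driver, was PolII-listed in ISCs/EBs (0.472) and not in ECs. The height was larger in ISCs/EBs at 705 of the 708 genes in both PolII lists, so this direction is not particular to mex1 and GATAe. By position, mex1 was above the third quartile of the list in ECs (0.579) and below it in ISCs/EBs (1.25), and GATAe the reverse. The enterocyte genes mex1 and Myo31DF were still PolII-listed in ISCs/EBs, which goes against the labels. The part of this in the values of the members was not tested. The enteroendocrine marker pros was in neither PolII list.

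A small GTPase is active while it holds GTP and is drawn to a membrane, where it recruits effectors such as tethers, motors and coats, and it is switched on by exchange factors (GEFs) and off by GTPase-activating proteins (GAPs). Each Rab marks particular membranes: Rab1 and Rab2 act between endoplasmic reticulum (ER) and Golgi, Rab5 on early endosomes, Rab7 on late endosomes and lysosomes, and Rab11 on recycling endosomes. Arf proteins recruit coats and alter membrane lipids, and Arl proteins act at the Golgi, lysosome and cilium. In gut epithelia these proteins sort apical and basolateral cargo, and they carry receptors to and from the surface of the progenitor cells.

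No listed height measures a promoter alone, since PolII heights are means over transcripts and Ets21c peaks can lie up to 5 kb away. The stretch of DNA just before the annotated 5′ end of a gene is where its promoter is looked for. It is shown here for 4 members that the results turn on: Rab10 and Rab11, which with Rab2 were in all 4 lists (3 of 41, against 2.17% of annotated genes), Arl8, which was in 3, and Rab9D, the listed one of a set of near copies. The sequences are read from the Release 6 assembly (dm6) on the strand of the gene, 5′ to 3′, at the positions of the Ensembl annotation, and end at the base before the 5′ end. Bases of annotated exons were left out of the printed sequences, so that Rab10 has 244 bases, the whole gap to its neighbor CG17068. Arl8 has 247, the whole gap to its neighbor CG9667. Both neighbors run on the other strand, so these stretches also lie just before the 5′ ends of CG17068 and CG9667. Capitals mark CGGAA or its reverse complement TTCCG, a core that ETS factors such as Ets21c prefer, and TATCGAT or its reverse complement ATCGATA, the core of the DNA replication-related element (DRE) that many fly promoters carry.
Rab10, chrX:20251094-20251337, plus strand: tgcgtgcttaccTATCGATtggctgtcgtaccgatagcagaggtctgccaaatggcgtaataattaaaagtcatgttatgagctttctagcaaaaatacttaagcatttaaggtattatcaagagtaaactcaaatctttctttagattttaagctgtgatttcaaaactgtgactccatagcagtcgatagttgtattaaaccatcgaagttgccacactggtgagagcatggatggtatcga
Rab11, chr3R:21111158-21111407, plus strand: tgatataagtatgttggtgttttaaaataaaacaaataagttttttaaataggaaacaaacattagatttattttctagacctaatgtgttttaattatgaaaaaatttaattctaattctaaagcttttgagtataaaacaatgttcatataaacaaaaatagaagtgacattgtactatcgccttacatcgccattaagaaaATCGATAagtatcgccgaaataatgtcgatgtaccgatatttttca
Arl8, chr3R:8126358-8126604, plus strand: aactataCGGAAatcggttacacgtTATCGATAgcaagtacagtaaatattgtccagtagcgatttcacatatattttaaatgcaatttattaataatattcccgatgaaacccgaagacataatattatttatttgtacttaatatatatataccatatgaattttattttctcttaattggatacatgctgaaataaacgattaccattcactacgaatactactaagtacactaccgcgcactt
Rab9D, chrX:10588839-10589088, plus strand: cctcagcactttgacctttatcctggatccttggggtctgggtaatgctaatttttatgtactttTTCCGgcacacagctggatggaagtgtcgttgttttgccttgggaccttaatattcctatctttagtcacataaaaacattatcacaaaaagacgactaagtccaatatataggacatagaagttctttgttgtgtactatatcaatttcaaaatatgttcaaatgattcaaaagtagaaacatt

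The core CGGAA, searched on both strands of the 250 bases before the 5′ end, was found at 11 of the 41 genes, against 28.4% of 13968 protein-coding genes. It was found at 5 of the 17 members in an Ets21c list (36.8% of annotated genes are in one), namely Arl8, Rab1, Rab2, Rab7 and Rab9D, and at 6 of the 24 in none. The longer CCGGAA, of which CGGAA is a part, was found at Rab9D alone, against 5.33% of all these promoters, and ACCGGAAGT at no member, against 0.0716%. No match says only that the letters are not in this window, since an Ets21c peak could lie up to 5 kb from a gene.

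The DRE core TATCGAT was noticed in the printed sequences and then counted. It was found at 18 of the 41 genes (43.9%), against 16.2% of the protein-coding promoters and 23.2% of those of genes that were PolII-bound in ISCs/EBs. In Rab10 it lies 232 to 226 bases before the 5′ end and in Rab11 46 to 40 bases before it, while in Arl8 it is read on both strands of 1 stretch. The matches of Rab10 and Arl8, the CGGAA of Arl8 included, lie nearer to the 5′ ends of CG17068 and CG9667 than to those of the members. The genes with TATCGAT are spread over those listed (12 of 24) and those in no list (6 of 17, among them Arl2, Rab21 and Rab27). The motif was chosen after the sequences had been seen, and its count was not tested. Both cores were counted over the full 250 bases, with bases in annotated exons kept (181 for Arl2 and 190 for Rab8). A counted match can therefore lie in an exon of a neighboring gene. The same windows hold few sites for Dam: 33 of the 41 have no GATC in the 250 bases, as do 61.9% of the protein-coding promoters, and the GATC fragment that holds the 5′ end is between 202 and 1938 bp long (median 816). A TaDa signal is resolved to such a fragment and not to single bases of the window.

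By PolII, 14 of the 41 genes (34.1%) were listed in ISCs/EBs, against 12.4% of the 17873 annotated genes, and in ECs 9 (22%), against 5.29%. Ets21c was found at 13 of the 41 in ISCs/EBs (31.7%, against 28.9% of annotated genes) and at 11 in ECs (26.8%, against 27.1%), which is close to the background. All PolII-listed members are GTPase genes. Of 13986 protein-coding genes 15.8% were PolII-bound in ISCs/EBs and 6.76% in ECs, and 31.8% were Ets21c-bound in ISCs/EBs and 30.3% in ECs. The difference between these shares was not tested.

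**Figure D1:**
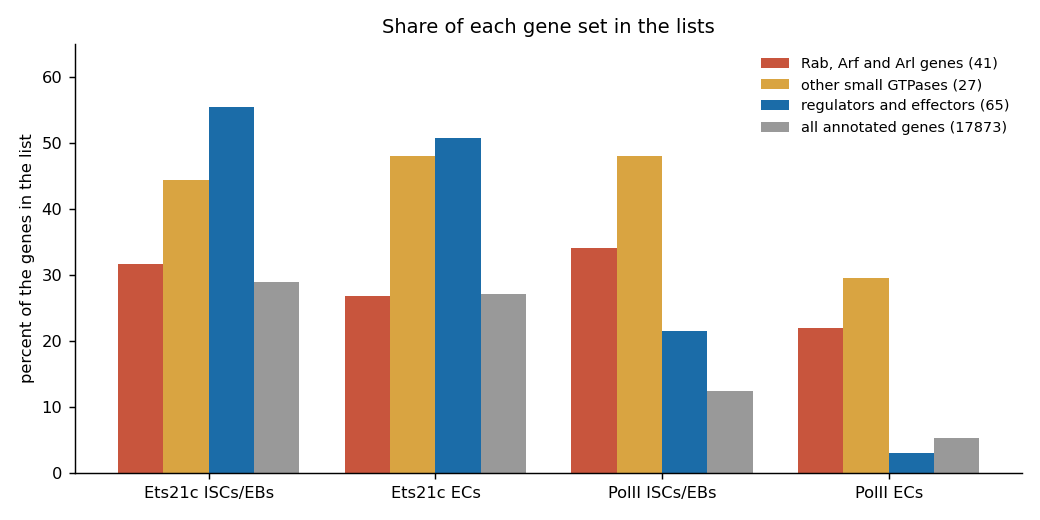
Percent (vertical axis) of the 41 Rab, Arf and Arl genes, of 27 other small GTPase genes, of 65 genes of regulators and effectors and of all 17873 annotated genes that are in each of the 4 lists (horizontal axis). The Rab, Arf and Arl bar stands at 34.1% and 22% in the PolII lists, against 12.4% and 5.29% for all genes, and near the bar of all genes in the Ets21c lists.

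Among the Rabs of ER and Golgi, 6 of 7 were in at least 1 list, against 39.9% of annotated genes. Rab2, which acts in retrograde traffic, was in all 4 lists, with Ets21c heights of 0.52 in ISCs/EBs and 0.64 in ECs and PolII heights of 0.834 in ISCs/EBs and 0.339 in ECs. Rab10, which steers basement membrane secretion in epithelia, was also in all 4, with Ets21c heights of 0.38 in ISCs/EBs and 0.45 in ECs. Its PolII height was 1.487 in ISCs/EBs, above 88.1% of that list, and 0.322 in ECs, above 5.8% of that list. Rab10 thus stood high among the PolII-bound genes of ISCs/EBs and near the lowest height listed in ECs, 0.301.

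Rab8, which acts with Rab10 in exocytosis, had PolII heights of 0.793 in ISCs/EBs and 0.311 in ECs and was in no Ets21c list. Rab1, the GTPase of ER to Golgi transport, was in the Ets21c list of ECs alone, at 0.54 with an FDR of 0. Rab6, of Golgi traffic, was also there alone, at 0.2, the lowest Ets21c height of a member in ECs and above 0.0824% of that list. Rab30, a Golgi Rab, was in the Ets21c list of ISCs/EBs alone, at 0.4. Neither Rab1, Rab6 nor Rab30 was in a PolII list, and Rab18, of ER and lipid droplets, was in no list.

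Of the endosome and lysosome Rabs 8 of 10 were in at least 1 list (39.9% of annotated genes). By PolII 7 of the 10 were listed in ISCs/EBs (12.4% of annotated genes) and 3 in ECs (5.29%). Rab7, of late endosomes, had the largest PolII height of any member in ISCs/EBs, 1.772, rank 93 of 2216 genes, and 0.551 in ECs, with an Ets21c height of 0.58 in ISCs/EBs alone. Rab4, of fast recycling from early endosomes, had PolII heights of 1.218 in ISCs/EBs and 0.599 in ECs, the largest of a member in ECs, and was in no Ets21c list. Rab11 was in all 4 lists, with PolII heights of 0.967 in ISCs/EBs and 0.314 in ECs and Ets21c heights of 0.65 in ISCs/EBs and 0.58 in ECs. Rab4 and Rab7 were the only members above the median of the EC PolII list.

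Rab9, which acts in recycling from late endosomes to the Golgi, was in the lists of ISCs/EBs alone, at 1.287 by PolII and 0.52 by Ets21c. So was Rab32, of lysosome-related organelles such as the pigment granules of the eye, at 0.503 and 0.23, the lowest height of a member by either fusion in ISCs/EBs. Rab14 (1.01) and Rab5 (0.721) were PolII-bound in ISCs/EBs and had no other listing. Rab35, of endocytic recycling, was in both Ets21c lists, at 0.58 in ISCs/EBs and 0.64 in ECs, and in no PolII list. Rab21 and Rab39 were in no list.

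None of the 3 Rabs of regulated secretion, Rab3, Rab26 and Rab27, which act in synaptic and secretory vesicles, was in any list. Most annotated genes are likewise in none, since 39.9% are in at least 1 list. Rab3-GEF, which encodes the exchange factor of Rab3, was in the Ets21c list of ECs alone (0.4), and the GAP genes Rab3GAP1 and Rab3-GAP in none. Of 8 other Rabs, Rab19 had PolII heights of 0.977 in ISCs/EBs and 0.403 in ECs. Arl5, which overlaps the end of Rab19 by 6 bp on the other strand, was in no list. Rab23 and Rab40 were in none.

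Rab9D, on the X, was in the Ets21c list of ISCs/EBs at 0.58, while Rab9Db, Rab9E, Rab9Fa and Rab9Fb were in no list. These 5 genes are related copies. How the authors placed reads that match several copies was not stated in the methods or labels, so the value of Rab9D is uncertain. Rab9Db, Rab9E and Rab9Fa are 98.9 to 99.4% identical to Rab9D, and Rab9Fb is the one at 83%.

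All 3 Arf genes were PolII-bound in at least 1 cell type, against 13.7% of annotated genes. Arf79F (Arf1), which recruits the COPI coat at the Golgi, had PolII heights of 1.328 in ISCs/EBs and 0.449 in ECs and an Ets21c height of 0.65 in ISCs/EBs alone. Arf51F (Arf6), of the cell surface and cortical actin, was in the PolII list of ISCs/EBs alone (0.866, FDR 0.00728). Arf102F (Arf4) was in the PolII list of ECs alone (0.347, FDR 0.0058), the only member PolII-bound in ECs and not in ISCs/EBs (1.34% of annotated genes). Its height was above 15.3% of that list, and the gene is 1159 bp long with 2 GATC sites, so the value rests on few fragments. Of 946 annotated genes in the PolII list of ECs, 239 were absent from that of ISCs/EBs.

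Of the 6 Arl genes, 3 were Ets21c-bound in both cell types (19.1% of annotated genes) and 1 was PolII-bound in either (13.7% of annotated genes). Arl8, which moves lysosomes along microtubules, had Ets21c heights of 0.55 in ISCs/EBs and 0.63 in ECs and a PolII height of 0.712 in ISCs/EBs alone. Arl1, which recruits golgins to the trans-Golgi, had Ets21c heights of 0.47 in ISCs/EBs and 0.32 in ECs. Arl6, known in mammals for cargo entry into cilia, had Ets21c heights of 0.43 in ISCs/EBs and 0.54 in ECs. Arl2, Arl4 and Arl5 were in no list, and Arl6IP1, of the ER membrane, was in the Ets21c list of ECs alone (0.43).

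**Figure D2:**
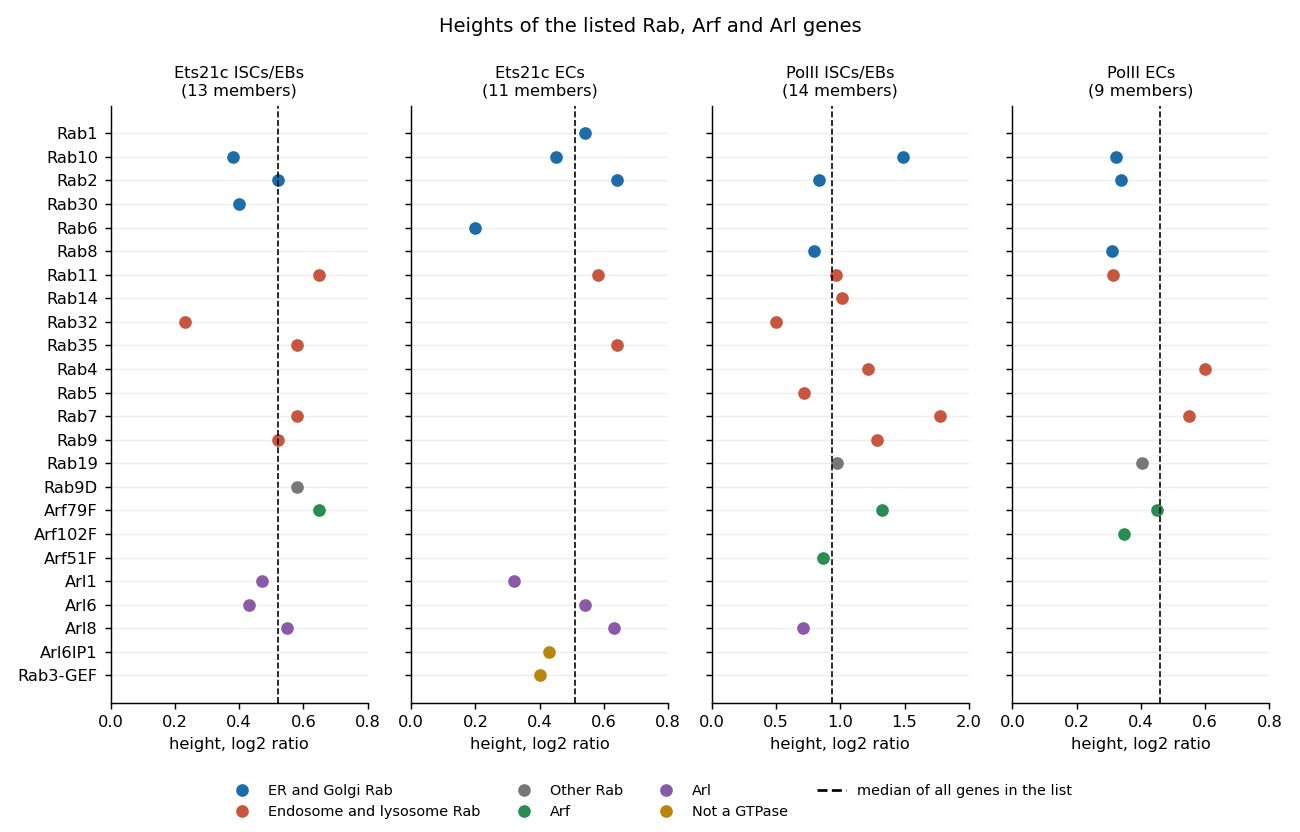
Height in log2 ratio (horizontal axes, which differ in range) of the 24 listed genes (vertical axis), grouped by role, in the 4 lists, with a dashed line at the median of all genes in the list. A row without a point means the gene is not in that list. Members lie to both sides of the line in both Ets21c panels and in the ISC/EB panel of PolII, and 7 of 9 lie left of it in the EC panel of PolII.

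Within each Ets21c list the members were ordinary in height. Their median was 0.52 in ISCs/EBs (range 0.23 to 0.65), against 0.52 over all 5184 genes, and 0.54 in ECs (range 0.2 to 0.64), against 0.51 over 4855 rows. The highest members stood above 78.2% of the list in ISCs/EBs (Rab11 and Arf79F) and above 79.5% in ECs (Rab2 and Rab35). By PolII the median was 0.972 in ISCs/EBs, against 0.934 over all genes. In ECs it was 0.347, against 0.459, with 7 of 9 members below the median of the list.

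Of the 8 members in both PolII lists (3.96% of annotated genes are in both), all had the larger height in ISCs/EBs, as had 705 of the 708 genes in both (99.6%). The difference, ISCs/EBs minus ECs, ran between 0.482 for Rab8 and 1.221 for Rab7, with a median of 0.636 against 0.77 over all 708. Rab7 and Rab10 (1.165) stood above 91.7% and 89.3% of these genes in their difference. Rab4 had the higher position in ECs, above 77.1% of that list against 71.6% of the list of ISCs/EBs. Direction is therefore shared with nearly every gene, and the members differ among themselves in size.

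In both Ets21c lists were 7 members, against 19.1% of annotated genes. The larger height was in ISCs/EBs for Rab11 (0.65 in ISCs/EBs and 0.58 in ECs) and Arl1, and in ECs for Rab2, Arl6, Arl8, Rab10 and Rab35. The 2 of 7 compare with 56.3% of the 3429 genes in both lists. The differences ran between -0.12 for Rab2 and 0.15 for Arl1, with a median of -0.07 against 0.03 over all shared genes, and only those of Arl1, Arl6 (-0.11) and Rab2 exceeded 0.1. Without replicate values it is not known whether differences of this size exceed the spread between samples.

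**Figure D3:**
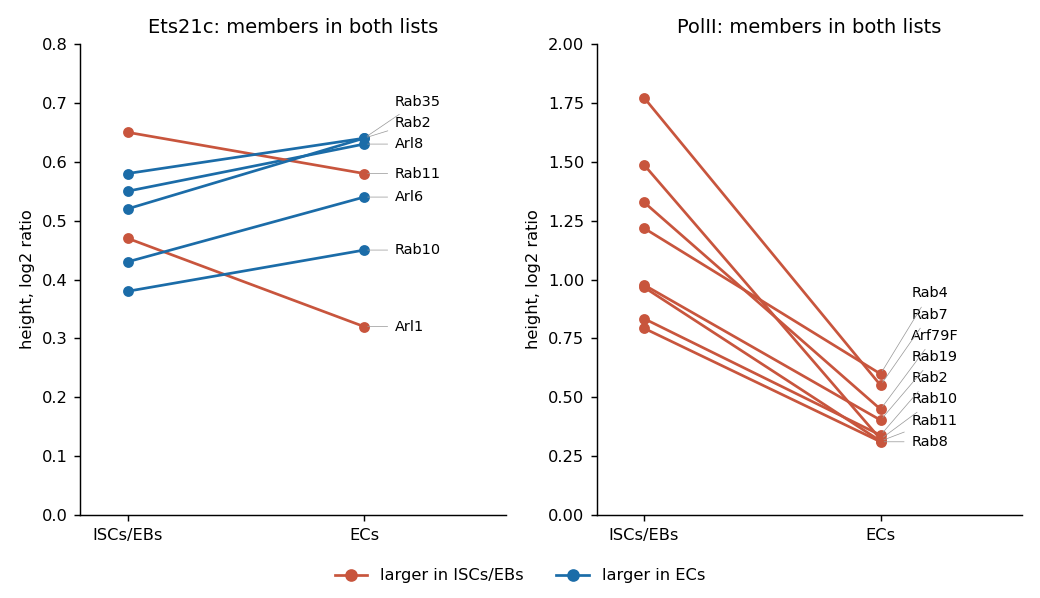
Height in log2 ratio (vertical axes, which differ in range) in ISCs/EBs and ECs of the 7 members in both Ets21c lists and the 8 in both PolII lists, with a line per gene. All PolII lines run down toward ECs, while 5 of the 7 Ets21c lines run up.

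The cell types also differed in which members were listed. Ets21c was at Arf79F, Rab7, Rab9, Rab30, Rab32 and Rab9D in ISCs/EBs alone, and at Rab1, Rab6, Rab3-GEF and Arl6IP1 in ECs alone, against 9.77% and 7.95% of annotated genes. Of the Ets21c-bound members of ISCs/EBs 53.8% were also Ets21c-bound in ECs (66.1% of all genes of that list), and of those of ECs 63.6% in ISCs/EBs (70.6%). PolII was at Arl8, Rab5, Rab9, Rab14, Rab32 and Arf51F in ISCs/EBs alone (8.4% of annotated genes). Of the members PolII-bound in ECs 8 of 9 were PolII-bound in ISCs/EBs too (88.9%, against 74.7% of all genes of that list), and of those of ISCs/EBs 8 of 14 in ECs (57.1%, against 31.9%).

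Ets21c and PolII were found together at 8 members in ISCs/EBs, namely Arf79F, Arl8, Rab2, Rab7, Rab9, Rab10, Rab11 and Rab32, against 8.74% of annotated genes, and in ECs at Rab2, Rab10 and Rab11, against 3.37%. These 8 are 57.1% of the PolII-bound members of ISCs/EBs, where 70.7% of all PolII-bound genes were Ets21c-bound. They are also 61.5% of the Ets21c-bound members, against 30.2% of all Ets21c-bound genes. In ECs the 3 are 33.3% of the PolII-bound members (63.6% of all) and 27.3% of the Ets21c-bound members (12.4% of all). The ratios of both fusions share the Dam-alone samples of the cell type.

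Bound by PolII in some cell type and by Ets21c in none were 7 of the 41 members, Rab4, Rab5, Rab8, Rab14, Rab19, Arf51F and Arf102F, against 3.03% of annotated genes. The converse, Ets21c without PolII in either cell type, held for 9 of the 41 members, Arl1, Arl6, Rab1, Rab6, Rab30, Rab35, Rab9D, Rab3-GEF and Arl6IP1, against 26.2% of annotated genes. Both groups hold members of several roles: of the ER and Golgi Rabs, Rab1, Rab6 and Rab30 are Ets21c-bound alone, Rab8 PolII-bound alone, and Rab2 and Rab10 bound by both.

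The authors assigned an Ets21c peak to genes within 5 kb that had no further gene lying between them and the peak, so neighbors on either side can carry the height of 1 peak. Heights have 2 decimals, so equal values can also come from different peaks. In ISCs/EBs 9 of the 13 members had a listed gene within 10 kb with the same height and FDR (67% of all genes in the list), and in ECs 8 of 11 (67.7%). Rab2 shared its 0.52 in ISCs/EBs and 0.64 in ECs with Mob4, whose start is 78 bp away on the other strand, and with CG3270 and chk. Mob4 and Rab2 lie between CG3270 and chk, so it is not known whether these equal values are of 1 peak. Arl1 shared its heights in both cell types with PolD1, which overlaps its end by 41 bp, and Arl6 with EloC, 26 bp away.

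At other members the partner differed between the cell types. Rab11 had the height of Sec15 (0.65, FDR 0.0001) in ISCs/EBs, a gene that starts 3436 bp away on the other strand and encodes the exocyst subunit that binds Rab11. The gene rtet lies between Rab11 and Sec15 and was not in the Ets21c list of ISCs/EBs, so it is not known whether the equal values there are of 1 peak. In ECs it had the height of rtet (0.58, FDR 6e-05), while Sec15 stood at 0.48. Rab10 had the height of CG17065, the next gene downstream, in ISCs/EBs (0.38), and in ECs that of CG17068 (0.45), which starts 245 bp away on the other strand. The partner thus lay on opposite sides of Rab10 in the cell types.

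Arf79F shared its height with CG33170 and a snoRNA gene inside it, Rab9 with CG10237, Rab30 with MME1, and Rab32 with CG8026 and an overlapping lncRNA gene, all in ISCs/EBs. In ECs Rab1 shared its height with an antisense RNA gene that it overlaps, Arl6IP1 with nonA-l and Rab3-GEF with Cyp4s3. Rab7, Arl8, Rab35 and Rab9D in ISCs/EBs and Arl8, Rab35 and Rab6 in ECs had no such partner. Of the members in both Ets21c lists, Arl8 and Rab35 alone were without one in either cell type.

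**Figure D4:**
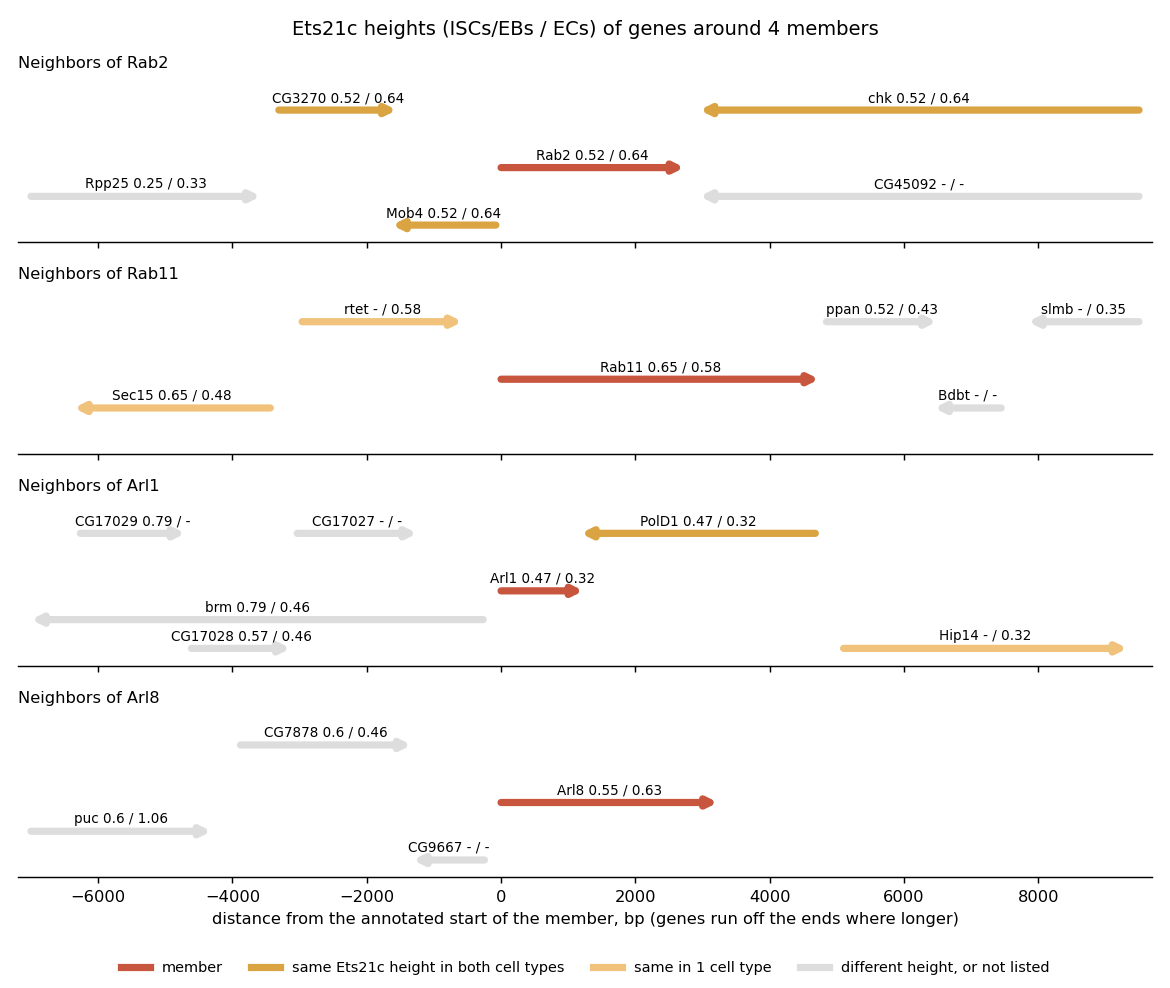
Genes around Rab2, Rab11, Arl1 and Arl8, drawn to scale as arrows in their direction of transcription against the distance in bp from the start of the member (horizontal axis), each with its Ets21c height in ISCs/EBs and in ECs, or a dash where not listed. Rab2 shares 0.52 and 0.64 with Mob4, CG3270 and chk, Rab11 shares 0.65 with Sec15 and 0.58 with rtet, and no neighbor of Arl8 has its heights of 0.55 and 0.63.

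The genes also differ in length. The 15 PolII-listed GTPase genes have a median length of 3268 bp with 9 GATC sites, and the 22 in no PolII list 1586 bp with 5.5 sites. The 15 Ets21c-listed GTPase genes have a median of 3032 bp, against 1676 bp for the 22 in no Ets21c list and 2162 bp for all protein-coding genes. Short near copies weigh on these medians: the 15 GTPase genes in no list at all have a median of 1339 bp. Without the Rab9 copies on X the remaining 11 have a median of 2042 bp. The part of length in which members are listed was not tested. Gene lengths ran from 1159 to 8479 bp for the PolII-listed GTPase genes and from 773 to 16254 bp for those in no PolII list.

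The proteins that work with these GTPases were counted in the same way, with no test. Of 65 genes of GEFs, GAPs, prenylation and effectors, 36 were Ets21c-bound in ISCs/EBs (55.4%, against 28.9% of annotated genes) and 33 in ECs (50.8%, against 27.1%). By PolII 14 were bound in ISCs/EBs (21.5%, against 12.4%) and 2 in ECs (3.08%, against 5.29%). The Ets21c shares over protein-coding genes alone are somewhat larger than over annotated genes, 31.8% in ISCs/EBs and 30.3% in ECs. Among Rab effectors Ets21c was at 17 of 23 in ISCs/EBs, with the largest heights at Golgin245 (0.89 in ISCs/EBs), a golgin, Rbsn-5 (0.78 in ISCs/EBs and 0.65 in ECs), an effector of Rab5, and Vps16A (0.7 in ISCs/EBs and 0.71 in ECs), of the tether that Rab7 recruits. The Rab11 partners nuf (0.47 in ISCs/EBs and 0.43 in ECs), Rip11 (0.57 in ISCs/EBs and 0.45 in ECs) and Sec15 were Ets21c-bound in both cell types, as Rab11 was. Of annotated genes 19.1% are in both Ets21c lists. These partners were chosen after their values were seen, and Sec15 had the height and FDR of Rab11 in ISCs/EBs (0.65, 0.0001).

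Of 15 GEFs and GAPs of Rabs 6 were Ets21c-bound in ISCs/EBs (40%, against 28.9% of annotated genes) and 4 in ECs (26.7%, against 27.1%). The largest heights were at the GAP gene Evi5 (0.9 in ISCs/EBs and 0.94 in ECs). Crag, the GEF of Rab10, stood at 0.44 by Ets21c and 0.711 by PolII in ISCs/EBs alone. Of 22 genes of Arf and Arl regulators and effectors 12 were Ets21c-bound in ISCs/EBs (54.5%, against 28.9%) and 14 in ECs (63.6%, against 27.1%). Among them were Sec71 (0.9 in ISCs/EBs and 0.57 in ECs), an Arf GEF, siz (0.8 in both cell types), a GEF of Arf6, and Gga (0.58 in ISCs/EBs and 0.81 in ECs), an adaptor that Arf recruits. Arf51F itself was in no Ets21c list. Of 5 genes of Rab recycling and prenylation, RabGGTb alone was listed (0.57 in ISCs/EBs and 0.53 in ECs by Ets21c), where 39.9% of annotated genes are in at least 1 list.

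Of 27 other small GTPase genes, 12 were Ets21c-bound in ISCs/EBs (44.4%, against 28.9% of annotated genes) and 13 in ECs (48.1%, against 27.1%). By PolII 13 were bound in ISCs/EBs (48.1%, against 12.4%) and 8 in ECs (29.6%, against 5.29%). RhoL had an Ets21c height of 0.96 in ISCs/EBs and 0.63 in ECs, and Rac2 of 0.73 in ISCs/EBs and 0.84 in ECs, all above the highest Rab, Arf or Arl height of their list except that of RhoL in ECs. Rho1, of the actomyosin cytoskeleton, had a PolII height of 1.863 in ISCs/EBs and Sar1, of the COPII coat, one of 1.755, beside the 1.772 of Rab7. RabX1, RabX4 and RabX6, whose names the pattern does not take, were each in an Ets21c list of 1 cell type, at 0.4 in ISCs/EBs, and at 0.47 and 0.25 in ECs.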

How the data were processed

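TaDa was measured in 18 midgut samples. With the damidseq_pipeline the authors computed, per GATC fragment, the log2 ratio of fusion to Dam alone. Ets21c peaks of at least 2 fragments with an FDR under 1% had to be present in replicates 1 and 3, since replicate 2 was left out as noisy, and were assigned to genes within 5 kb with no gene lying between. PolII heights are means over transcripts of release 6.03. For PolII the authors modelled the FDR from randomized data by gene size and took the highest over replicates. The deposited log2 heights and the deposited FDR were used as listed, and no aligner is named in the methods or labels used here. The file header gives minimum heights of 0.3 and 0.2 for PolII in ISCs/EBs and ECs and 0.1 for Ets21c, for which the methods give 0.3, while 161 genes of ISCs/EBs and 125 rows of ECs lie below 0.3. The submitters' processing notes name dm3 and the methods release 6.03 (dm6). The table used holds no coordinates, so the build behind the lists was not checked. Read depth and single-replicate values are not analysed here.

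Members were matched by FlyBase ID to Ensembl release 115 (FlyBase 6.54). By ID or symbol 5163 and 4838 Ets21c genes and 2209 and 946 PolII genes of ISCs/EBs and ECs matched. A gene listed 2 times kept its larger height. Shares are counts over annotated genes, a position is the percent of a list with a lower height, and no test was made. Members, gene lists, role groups and motifs were chosen with earlier results of these data known. Every member was named, and of each other list genes among its highest 6 by Ets21c height, except nuf, Rip11, Sec15, Sar1, RabX1, RabX4 and RabX6, chosen after their values were seen. Near-copy identity is from global alignment of gene spans. Motif search was tested on simulated data. Analyses used python 3.11.15, numpy 2.4.6, biopython 1.88 and matplotlib 3.10.9.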

Additional observations from a re-analysis of the deposited data

How the results depend on the processing

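With heights of at least 0.5, the count of members was 8 in the Ets21c list of ISCs/EBs, 6 in the Ets21c list of ECs and 2 in the PolII list of ECs, in place of 13, 11 and 9, and the full lists shrank to 3032 of 5184, 2586 of 4855 and 383 of 948 entries. With an FDR of at most 0.001 it was 9 PolII-bound members in ISCs/EBs and 3 in ECs, in place of 14 and 9, and the full lists shrank to 1182 of 2216 and 356 of 948 genes. Of the members in both Ets21c lists, 1 and not 2 was higher in ISCs/EBs once differences of at most 0.1 were set aside, and 2 and not 5 were higher in ECs. Over all genes in both lists 1098 were then higher in ISCs/EBs and 722 in ECs. Counts under a height of at least 0.3 in every list, with GTPase genes alone and by gene ID, medians under the alternatives run, and neighbor counts within 5 kb, an alternative added after the data were examined, moved by less than the limits used (1.5 times for a count, 1 SD over members for a median). No paired analysis was possible because the table gives 1 pooled value per gene and cell type, so no replicate could be blocked or left out. For the same reason no limit from depth can be given.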
